A study of Mus musculus with 6 samples.

Results

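The cell cycle genes described here are 38 genes taken by symbol from the 23337 genes of the count files, in 4 role lists of 7 genes of DNA replication, 17 of mitosis, 9 cyclins and their kinase Cdk1, and 5 inhibitors of cyclin-dependent kinases (CDKs). The rule names them by symbol and sets no threshold on their values, though earlier results of these data were known when they were chosen. All 38 were among the 13925 genes with enough counts to be tested, and 36 had a mean of at least 1 CPM (counts relative to library size, on the TMM scale).

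The RNA came from sorted mammary basal cells, the outer and contractile layer of the gland's epithelium, of mice with and without vimentin. There were 2 wild-type libraries (genotype Vimwt/wt) and 4 knockout libraries (Vimtm1Cba/tm1Cba, both alleles targeted). Every library came from mice of the mixed strain 129/Sv X C57BL/6 at 15 weeks of age, was made from cells at passage p0, and held the pooled cells of 2 to 3 animals. The glands were digested with collagenase, and live cells without CD45 and CD31, low in CD24 and high in CD49f, were collected by flow cytometry. The targeted allele is carried in the germline, so the fibroblasts and vessels around the basal cells have it too. The work was done in 2 independent experiments, and the day codes that the file names carry place wild type 1 with knockout 1 and 2 (experiment 1) and wild type 2 with knockout 3 and 4 (experiment 2). Each experiment thus had a single wild-type library. Whether the knockout pools came from separate litters is not given in the sources used here, and p-values measure the spread between these pools.

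Cells enter the cell cycle when D-type cyclins with their CDKs inactivate the RB protein, which frees E2F factors to switch on the genes of DNA replication. Genes of mitosis are held down in resting cells by the DREAM complex, which contacts their promoters at the CHR element, and are raised in dividing cells by B-Myb and FOXM1 together with the CCAAT-binding factor NF-Y. CDK inhibitors such as p21, the product of Cdkn1a and a target of p53, stop the cycle, and in the resting adult gland few basal cells divide at any time. In bulk RNA, a lower share of dividing cells and less of each RNA per dividing cell cannot be told apart.

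The promoters of the genes that moved together between libraries (below) are shown to make these elements visible. RefSeq sequence (build GRCm38.p6) was at hand for 30 of the 38 genes, and none was used for Aurkb, Ccna2, Ccnd1, Ccnd2, Cdkn1c, Ccne2, Kif20a and Tpx2. The first 5 genes below, 3 of mitosis, 1 cyclin and Cdk1, are given with the 120 bases before their start, and Mcm5, a helicase subunit of DNA replication, with 250. Each is read 5′ to 3′ toward the gene, and capitals mark the CCAAT box (CCAAT, read as ATTGG where it lies on the other strand), the CHR element (TTTGAA, or its reverse TTCAAA in Top2a; in Mcm5 the variant TTTAAA) and the E2F site.
Mki67 (chr7:135716380-135716499, minus strand): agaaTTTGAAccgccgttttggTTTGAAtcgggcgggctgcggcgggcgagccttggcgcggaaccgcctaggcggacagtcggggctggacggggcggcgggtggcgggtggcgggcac
Top2a (chr11:99024190-99024309, minus strand): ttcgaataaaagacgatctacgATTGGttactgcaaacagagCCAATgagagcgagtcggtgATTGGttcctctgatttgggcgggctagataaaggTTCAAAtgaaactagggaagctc
Cdc20 (chr4:118437344-118437463, minus strand): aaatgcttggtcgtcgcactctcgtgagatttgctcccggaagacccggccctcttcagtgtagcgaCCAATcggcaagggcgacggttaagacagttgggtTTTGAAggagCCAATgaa
Ccnb2 (chr9:70421555-70421674, minus strand): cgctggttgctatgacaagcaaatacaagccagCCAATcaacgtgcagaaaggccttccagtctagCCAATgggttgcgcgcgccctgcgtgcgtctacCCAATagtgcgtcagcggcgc
Cdk1 (chr10:69352913-69353032, minus strand): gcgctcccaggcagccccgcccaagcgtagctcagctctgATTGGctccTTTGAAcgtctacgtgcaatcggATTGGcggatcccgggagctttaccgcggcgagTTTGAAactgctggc
Mcm5 (chr8:75109259-75109508, plus strand): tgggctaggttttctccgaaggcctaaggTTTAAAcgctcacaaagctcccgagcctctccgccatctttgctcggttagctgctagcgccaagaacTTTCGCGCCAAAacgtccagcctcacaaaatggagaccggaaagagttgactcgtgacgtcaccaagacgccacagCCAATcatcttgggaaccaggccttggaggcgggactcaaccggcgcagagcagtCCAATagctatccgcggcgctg

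Top2a carried 3 CCAAT boxes, 98, 78 and 58 bases before its start, and a CHR element 23 bases before it. Ccnb2 had 3 CCAAT boxes (87, 54 and 21 bases before the start) and no CHR match in the stretch shown. In Cdk1, 2 CHR elements lay 71 and 15 bases and 2 CCAAT boxes 80 and 48 bases before the start. Mki67 had 2 CHR elements, at 116 and 98 bases, and Cdc20 had 1, at 18 bases, between CCAAT boxes at 53 and 8 bases. The E2F run of Mcm5, TTTCGCGCCAAA, holds 2 overlapping matches on opposite strands, 153 and 149 bases before the start. Within 250 bases before the start and on either strand, a CCAAT box was found in 13 of 14 mitosis genes, 6 of 7 replication genes, 4 of 5 cyclins with Cdk1 and 1 of 4 inhibitors, against 37.5% of the 27025 genes of the table. A CHR element (TTTGAA or TTTAAA) was found in 9 of 14 mitosis genes, 2 of 7 replication genes, 4 of 5 cyclins with Cdk1 and 2 of 4 inhibitors, against 28.1% of all genes. One of the E2F sites searched (TTTCGCGC, TTTGGCGC or TTCCCGCC) was in 2 of 7 replication genes, 1 of 5 cyclins with Cdk1 and none of the 14 mitosis genes or 4 inhibitors, against 2.85% of all genes. These are matches of letters, not sites shown to be bound in these cells.

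Vim, which encodes the intermediate filament protein vimentin, checked the labels: it was at 215 and 241 CPM in wild type 1 and 2 and at 92.4, 105, 111 and 111 CPM in knockout 1 to 4. The groups did not overlap, and Vim fell by 1.12 in log2 units (edgeR, SE 0.12, adjusted p = 0.019). Total counts ran from 25347967 to 31200622. The basal keratin genes Krt5 (from 1702 to 2358 CPM) and Krt14 (from 3905 to 4563 CPM) were abundant in all 6 libraries, above the luminal Krt8 (from 581 to 742 CPM). The leukocyte gene Ptprc had from 0 to 15 counts, and the 12 leukocyte markers summed to 29.7 and 27.0 CPM in wild type and to between 19.9 and 33.2 CPM in knockout, with 6 of them at 0 in at least 1 library. All 15 endothelial markers were highest in wild type 1, where their sum was 197 CPM, against 80.6 CPM in wild type 2 and from 52.1 to 68.5 CPM in the knockout libraries. They also differed between the genotypes. In 11 of the 15 every knockout library lay below both wild types (8.57% of tested genes). All 15 had a log2 fold change below 0, with a median of -1.87. None was called by edgeR, and 8 were called lower by DESeq2, where 1.88% of tested genes were called in either direction. Pecam1, the gene of the CD31 used in the sort, was at 30.4 and 12.1 CPM in wild type and from 3.46 to 7.35 CPM in knockout, and Cdh5, the endothelial cadherin, at 32.6 and 11.3 CPM against 2.52 to 6.01 CPM. Of the 8 pericyte markers, 6 had a log2 fold change below 0 (median -0.25) and 5 were highest in wild type 1. Their sum, 302 and 311 CPM in wild type and 432 to 543 CPM in knockout, was mostly Mcam, picked out after its values were seen. The part of these other cells in the values below was not tested.

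**Figure D1:**
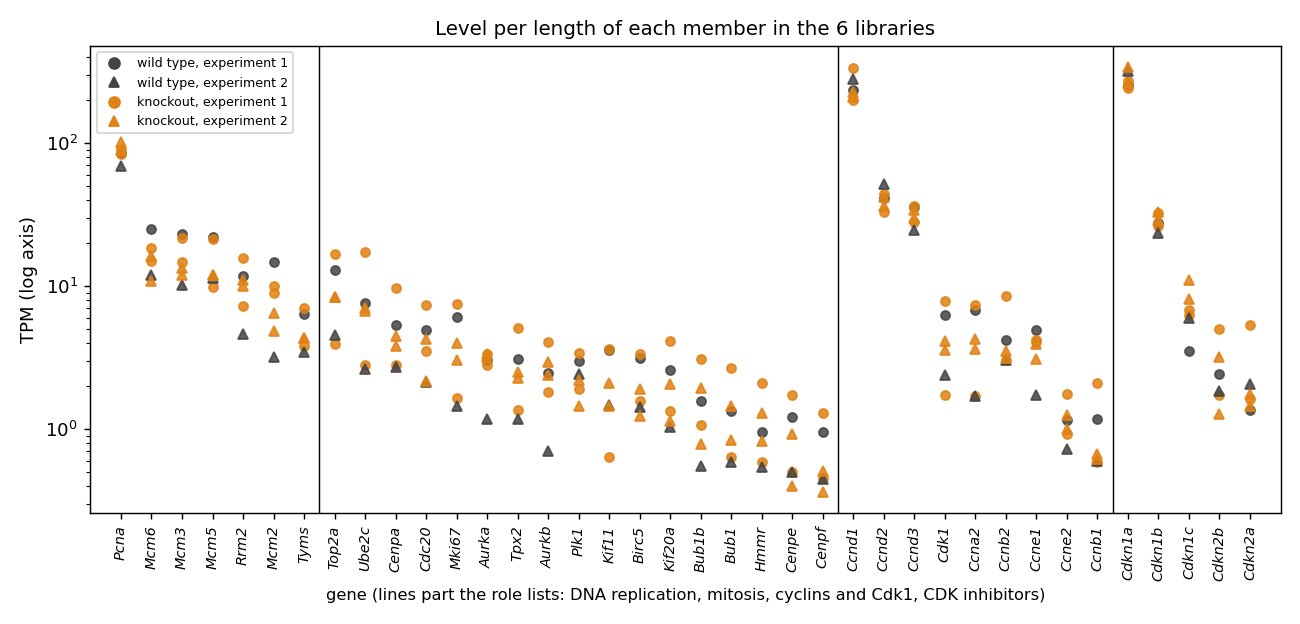
Level of each of the 38 genes per length (TPM, log axis), 1 point per library, grey for wild type and orange for knockout, circles for experiment 1 and triangles for experiment 2, with lines between the 4 role lists. Cdkn1a and Ccnd1 lie highest, with means of 281 and 248 TPM, and most mitosis genes lie below 5 TPM.

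On the TPM scale, which takes gene length into account, the 38 genes spanned a wide range. Cdkn1a had the highest mean over the 6 libraries (281 TPM) and Ccnd1, cyclin D1, the next (248 TPM), and their libraries overlapped. Pcna (86.9 TPM), Ccnd2 (41.3 TPM), Ccnd3 (31.5 TPM) and Cdkn1b (28.6 TPM) came next. The 17 mitosis genes had means between 0.668 TPM (Cenpf) and 9.14 TPM (Top2a), so the D-type cyclins and p21, which act around entry into the cycle, were present at far higher levels than the genes used in division itself.

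The question of the comparison was whether basal cells without vimentin express cell cycle genes at another level. None of the 38 was called higher or lower (edgeR quasi-likelihood test, Benjamini-Hochberg adjusted p from 0.594 for Cdkn1c to 0.999), where 11 of the 13925 tested genes, 0.0790%, were called. At an unadjusted p under 0.05 the count was also 0 of 38, against 8.57% of tested genes. With the experiment as a replicate block, 0 of 38 were called against 1.56%, and with DESeq2 0 of 38 against 1.88%. Each had 1 of the 38 genes at an unadjusted p under 0.05. That threshold was passed by 13.6% of tested genes with the block and by 1240 of 13925 with DESeq2. The median log2 fold change (knockout minus wild type) was -0.10 for DNA replication, 0.30 for mitosis, 0.09 for cyclins with Cdk1 and 0.40 for the inhibitors, against -0.01 over all tested genes. These medians rested on single libraries: without wild type 1 they were 0.47 for replication, 1.02 for mitosis and 0.70 for cyclins with Cdk1, and without wild type 2 they were -0.53, -0.13 and -0.098. Without knockout 1 the mitosis median was -0.086, that of cyclins with Cdk1 -0.26 and that of the inhibitors 0.042.

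The intervals were wide for most genes. A 2-fold higher level in knockout lay within the 95% interval of 25 of the 38 genes, and a 2-fold lower level within that of 13. The intervals of 9 genes held neither: Mcm3, Mcm6, Pcna, Tyms, Ccnd1, Ccnd2, Ccnd3, Cdkn1a and Cdkn1b. No mitosis gene was among them. The lowest count of a mitosis gene in a library was 13, at which counting error alone is 27.7% of the value.

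**Figure D2:**
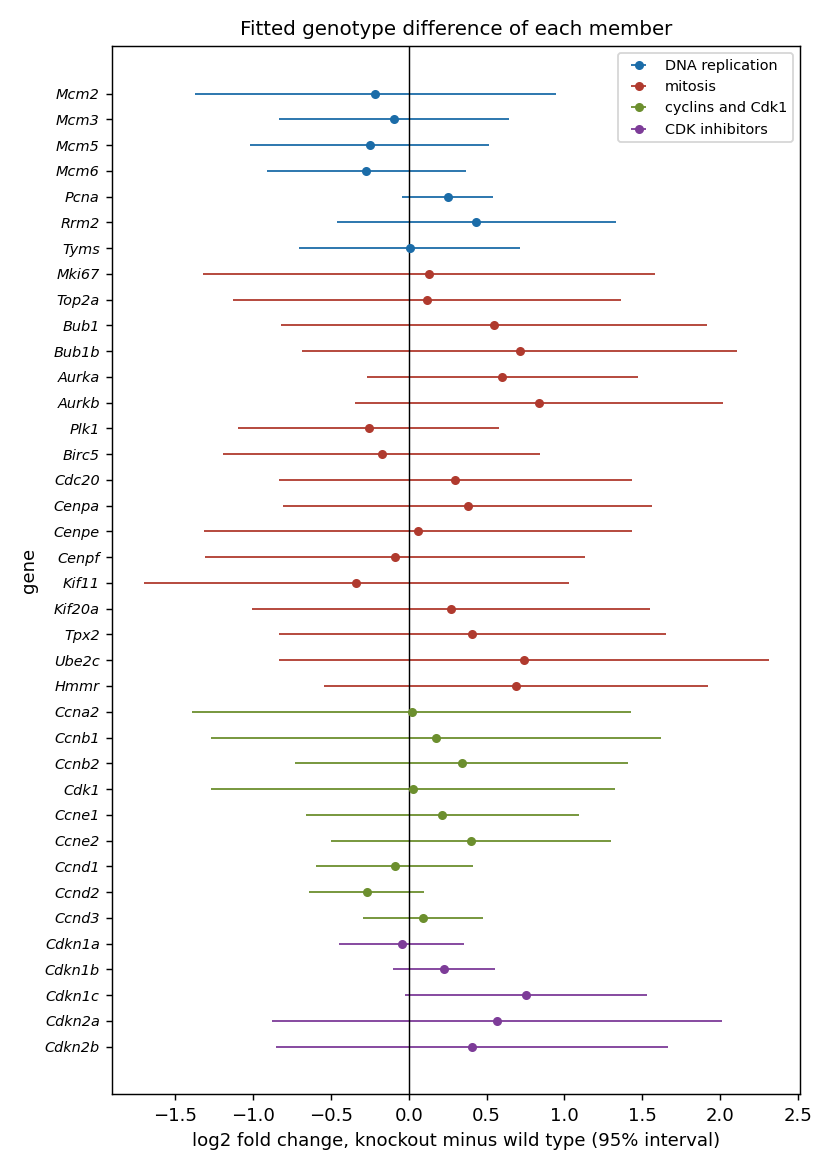
Fitted log2 fold change of each gene, knockout minus wild type, with its 95% interval; colours give the role list. The fit holds genotype alone, without the replicate block. Every interval of this fit spans 0, and the mitosis list has the widest median interval (2.48 log2 units), its intervals reaching from -1.70 (Kif11) to 2.31 (Ube2c).

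Among the 7 genes of DNA replication, the 4 genes of the MCM helicase that unwinds DNA at origins had their highest level in wild type 1 or, for Mcm5, about equally in wild type 1 and knockout 1. Mcm2 was at 16.5 and 3.89 CPM in wild type 1 and 2 and at 11.5, 10.4, 7.59 and 5.79 CPM in knockout 1 to 4. Mcm3 was at 22.3 and 10.5 CPM in wild type and at 21.3, 14.6, 13.5 and 12.3 CPM in knockout. The 4 knockout libraries lay between the wild-type libraries for both genes, and the log2 fold change was -0.21 for Mcm2 (SE 0.50, adjusted p = 0.967) and -0.10 for Mcm3 (SE 0.32, adjusted p = 0.982). Mcm5 was at 25.1 and 14.0 CPM in wild type and at 25.2, 11.7, 14.2 and 14.6 CPM in knockout. Mcm6 was at 24.1 and 12.6 CPM in wild type and at 18.4, 15.1, 16.2 and 11.2 CPM in knockout. For Mcm6 as for Mcm2 and Mcm3, both knockout libraries of experiment 1 were below their wild type.

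Pcna encodes the sliding clamp that holds DNA polymerase on its template. It was at 35.9 and 31.6 CPM in wild type and at 36.4, 39.9, 44.8 and 39.8 CPM in knockout, the only 1 of the 38 genes with every knockout library above both wild types, where 7.60% of tested genes had that order. None of the 38 had every knockout library below, where 8.57% did. The log2 fold change of Pcna was 0.25 (95% interval -0.04 to 0.54, adjusted p = 0.675), and knockout 1 exceeded wild type 1 by less than 1 CPM. Processed copies of Pcna elsewhere in the genome could take reads from it, since reads with several matches were not counted.

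The remaining replication genes make nucleotides. Rrm2, a subunit of ribonucleotide reductase, was at 8.61 and 3.62 CPM in wild type and at 11.7, 5.45, 8.30 and 7.75 CPM in knockout. Tyms, thymidylate synthase, was at 8.09 and 4.73 CPM in wild type and at 9.12, 5.02, 5.74 and 5.90 CPM in knockout. Wild type 2 was the lowest library for both, and for 5 of the 7 replication genes. Summed over the list, replication genes stood at 141 and 81.0 CPM in wild type 1 and 2 and at 134, 102, 110 and 97.3 CPM in knockout 1 to 4, so the group means were nearly equal at 111 ± 42.2 CPM (SD, n = 2) and 111 ± 16.1 CPM (SD, n = 4).

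**Figure D3:**
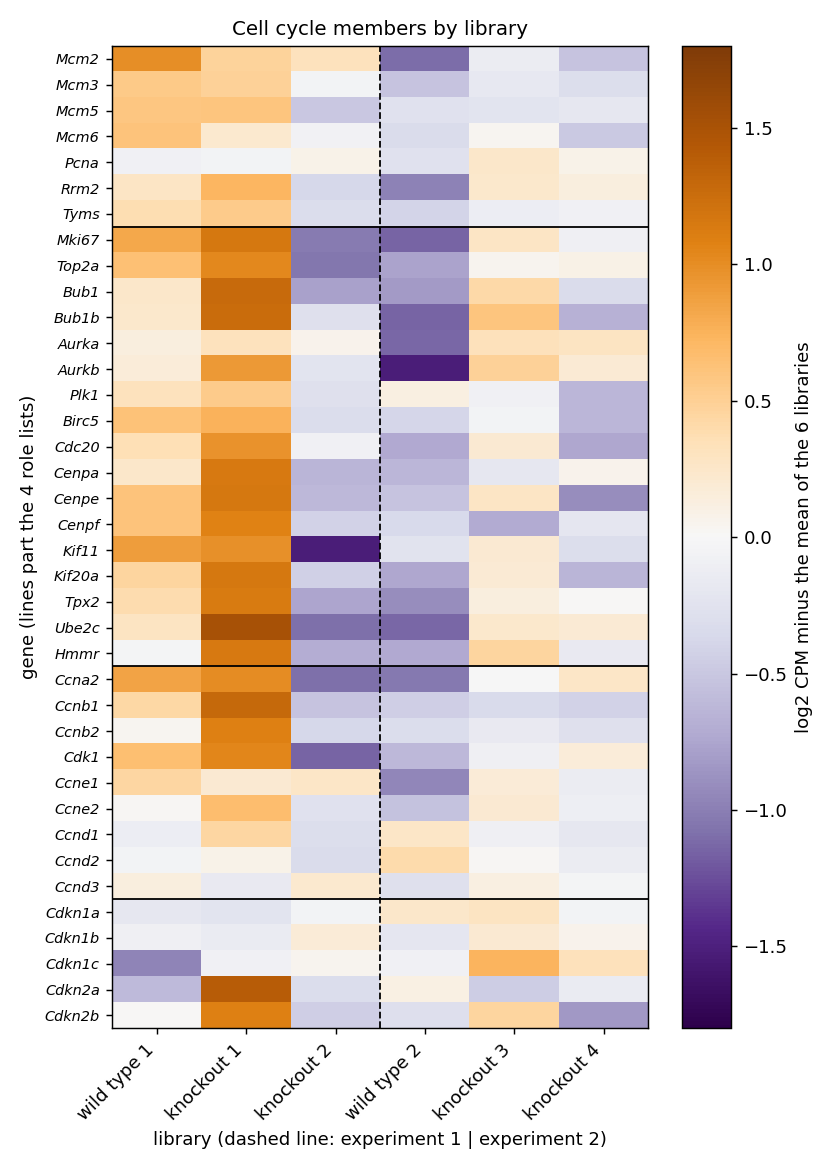
Log2 CPM of each gene minus its mean over the 6 libraries (colour; orange is higher and purple lower), genes in rows by role list and libraries in columns by experiment. The mitosis rows are highest in knockout 1 for 16 of 17 genes and lowest in wild type 2 for 9 and in knockout 2 for 3.

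The 17 mitosis genes varied together between libraries, in an order that crossed the genotypes. In experiment 1 every one of the 17 was higher in knockout 1 and lower in knockout 2 than in wild type 1, an order that 17.8% of all tested genes had. Knockout 1 held the highest level of the 6 libraries for 16 of them (13.2% of tested genes), the exception being Aurka, while wild type 2 held the lowest for 9 (19.8%) and knockout 2 for 3 (20.1%). Knockout 1 exceeded knockout 2 by a median ratio of 3.42, from 1.18 for Aurka to 6.09 for Ube2c, and the median ratio of the highest to the lowest library was 4.13, against 1.55 over all tested genes. The SD of log2 CPM among the 4 knockout libraries had a median of 0.77 over the mitosis genes and 0.21 over all tested genes.

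Mki67 encodes Ki-67, the coat protein of mitotic chromosomes used to stain dividing cells. It was at 20.6 and 5.27 CPM in wild type 1 and 2 and at 26.0, 5.73, 14.0 and 10.9 CPM in knockout 1 to 4. Knockout 2 and wild type 2 were nearly equal at the bottom and knockout 1 at the top, so the log2 fold change was 0.13 with a 95% interval from -1.32 to 1.58 (adjusted p = 0.990). Top2a, the topoisomerase that untangles sister chromosomes, was at 22.6 and 8.54 CPM in wild type and at 29.9, 7.07, 15.1 and 15.6 CPM in knockout (0.12, SE 0.54, adjusted p = 0.990). It had the same libraries at the top and at the bottom.

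The mitotic kinases and checkpoint genes were less abundant. Aurka, the spindle pole kinase, was at 1.95 and 0.808 CPM in wild type and at 2.20, 1.86, 2.22 and 2.16 CPM in knockout. Aurkb, the kinase of the chromosomal passenger complex, was at 1.61 and 0.500 CPM in wild type and at 2.74, 1.22, 2.02 and 1.65 CPM in knockout. Wild type 2 stood apart at the bottom for both. Aurkb had the highest fitted log2 fold change of the 38 genes, 0.84 (SE 0.52, adjusted p = 0.765), and that of Aurka was 0.60 (SE 0.38, adjusted p = 0.778). Birc5, survivin, a partner of Aurkb in that complex, was at 3.59 and 1.77 CPM in wild type and at 3.90, 1.86, 2.25 and 1.50 CPM in knockout. Plk1, a kinase needed for spindle assembly and exit from mitosis, was at 2.19 and 1.92 CPM in wild type and at 2.58, 1.46, 1.68 and 1.14 CPM in knockout. In experiment 2 Plk1 was the only mitosis gene with both knockout libraries below wild type 2.

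Bub1 and Bub1b encode kinases of the spindle checkpoint. Bub1 was at 1.95 and 0.924 CPM in wild type and at 3.96, 0.948, 2.18 and 1.30 CPM in knockout. Bub1b was at 1.92 and 0.731 CPM in wild type and at 3.90, 1.34, 2.45 and 1.02 CPM in knockout. Knockout 1 was about 2 times wild type 1 for both. Cdc20, which activates the anaphase-promoting complex once the checkpoint is satisfied, was at 2.95 and 1.39 CPM in wild type and at 4.50, 2.17, 2.65 and 1.38 CPM in knockout. Ube2c, the ubiquitin-conjugating enzyme of that complex, was at 2.37 and 0.885 CPM in wild type and at 5.53, 0.909, 2.28 and 2.20 CPM in knockout. Ube2c had the widest spread of the 38 genes, with 6.25 times between its highest and lowest library.

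Among the genes of the kinetochore, Cenpa, the histone variant that marks centromeres, was at 2.40 and 1.31 CPM in wild type and at 4.46, 1.30, 1.78 and 2.13 CPM in knockout. Cenpe, a kinetochore motor, was at 3.16 and 1.42 CPM in wild type and at 4.62, 1.34, 2.49 and 1.10 CPM in knockout. Cenpf, a large kinetochore protein, was at 3.53 and 1.81 CPM in wild type and at 4.90, 1.74, 1.41 and 2.01 CPM in knockout. Cenpf differed from most mitosis genes in having its lowest level in knockout 3.

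The spindle genes followed the same order of libraries within experiment 1. Kif11, the kinesin that pushes spindle poles apart, was at 5.72 and 2.58 CPM in wild type and at 6.04, 1.07, 3.53 and 2.48 CPM in knockout. Kif20a, a kinesin of cytokinesis, was at 3.38 and 1.46 CPM in wild type and at 5.50, 1.82, 2.79 and 1.57 CPM in knockout. Kif11 had the lowest fitted log2 fold change of the 38 genes, -0.34 (SE 0.59, adjusted p = 0.959). Tpx2, which activates Aurka on the spindle, was at 4.53 and 1.85 CPM in wild type and at 7.64, 2.05, 3.80 and 3.50 CPM in knockout. Hmmr, a spindle-associated protein, was at 1.25 and 0.770 CPM in wild type and at 2.83, 0.790, 1.75 and 1.14 CPM in knockout. For both, wild type 2 was lowest with knockout 2 next.

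**Figure D4:**
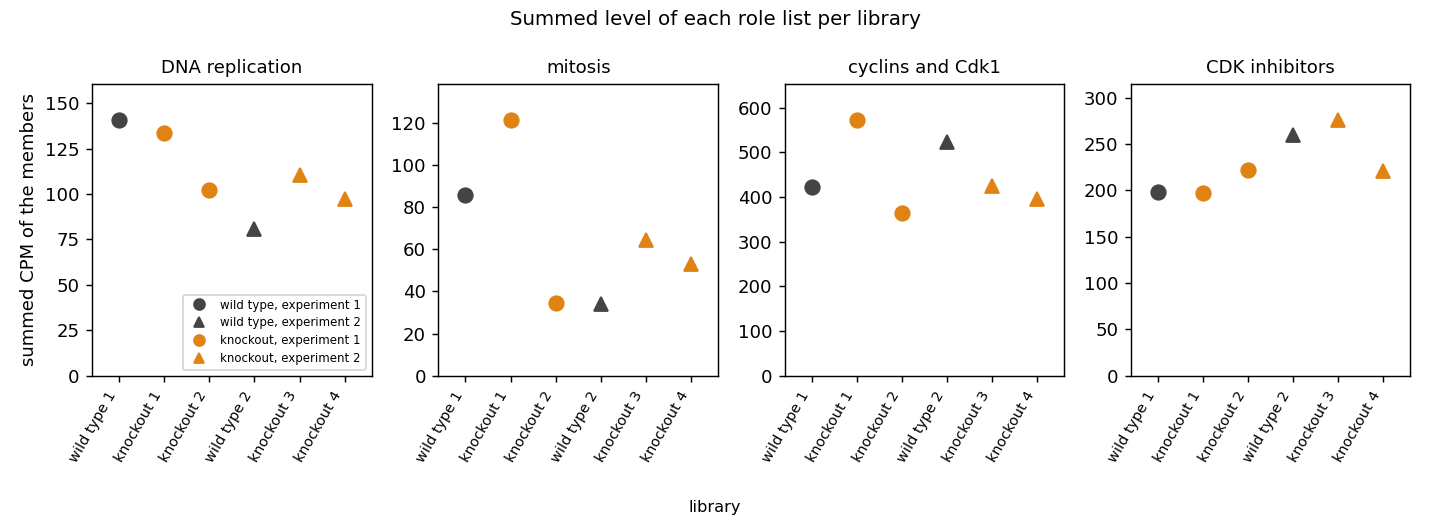
Summed CPM of each role list, 1 point per library and 1 panel per list, grey for wild type and orange for knockout, circles for experiment 1 and triangles for experiment 2; each axis starts at 0. The mitosis sum runs from 33.9 CPM in wild type 2 to 121 CPM in knockout 1, and the genotypes overlap in all 4 panels.

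Summed over the 17 genes, mitosis transcripts stood at 85.7 and 33.9 CPM in wild type 1 and 2 and at 121, 34.7, 64.4 and 52.8 CPM in knockout 1 to 4. The sum differed 3.57 times between libraries, and its group means were 59.8 ± 36.6 CPM (SD, n = 2) and 68.3 ± 37.3 CPM (SD, n = 4). The endothelial marker sum was 197 and 80.6 CPM in wild type 1 and 2 and 52.1, 68.5, 67.6 and 53.5 CPM in knockout 1 to 4. Luminal markers moved with the mitosis genes in part: 6 of 15 were highest in knockout 1 (13.2% of tested genes) and 9 of 15 lowest in wild type 2 (19.8%). In experiment 1 the knockout libraries lay on either side of wild type 1 for 5 of 15 luminal markers (35.4% of tested genes), with either one above. At most these 5 could have the order of the mitosis genes, which was not counted for them. Both were above it for 6 (31.0%) and both below for 4 (33.7%). The luminal markers had a median ratio of the highest to the lowest library of 2.63, while their sum, set by the most abundant genes, spanned 1.24 times. The leukocyte sum was 29.7 and 27.0 CPM in wild type 1 and 2 and 19.9, 33.2, 27.1 and 26.6 CPM in knockout 1 to 4. The fibroblast marker sum was 169 and 150 CPM in wild type 1 and 2 and 163, 143, 152 and 118 CPM in knockout 1 to 4. The part of any of these cell types in the mitosis values was not tested.

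Cyclins bind and activate CDKs. The cyclins of S phase and mitosis, with Cdk1 itself, had the order of the mitosis genes. Ccna2, cyclin A2, was at 6.42 and 1.73 CPM in wild type and at 7.14, 1.66, 3.53 and 4.25 CPM in knockout. Cdk1 was at 5.96 and 2.46 CPM in wild type and at 7.77, 1.70, 3.53 and 4.21 CPM in knockout. Both were highest in knockout 1 and lowest in knockout 2, and their log2 fold changes were 0.02 (SE 0.61) and 0.03 (SE 0.56), each with an adjusted p of 0.999. Ccnb2, cyclin B2, was at 2.16 and 1.69 CPM in wild type and at 4.50, 1.62, 1.88 and 1.73 CPM in knockout. Ccnb1, cyclin B1, was at 0.912 and 0.500 CPM in wild type and at 1.67, 0.474, 0.537 and 0.512 CPM in knockout, from 12 to 53 counts. For both B-type cyclins, the other 3 knockout libraries lay close together and far below knockout 1.

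The E-type cyclins, which drive entry into S phase with Cdk2, were low in these cells. Ccne1 was at 3.22 and 1.23 CPM in wild type and at 2.74, 2.84, 2.69 and 2.16 CPM in knockout. Ccne2 was at 1.25 and 0.847 CPM in wild type and at 1.95, 1.03, 1.41 and 1.14 CPM in knockout. Wild type 2 was the lowest library for each, and for Ccne1 wild type 1 was the highest.

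The D-type cyclins, which carry growth factor signals to RB, varied least among the cyclins. Ccnd1 was at 296 and 386 CPM in wild type and at 438, 261, 301 and 282 CPM in knockout (log2 fold change -0.09, 95% interval -0.59 to 0.41, adjusted p = 0.967). Its exons overlap those of the microRNA gene Mir3962. Ccnd2 was at 79.4 and 108 CPM in wild type and at 86.9, 65.4, 83.7 and 75.0 CPM in knockout (-0.27, 95% interval -0.64 to 0.10, adjusted p = 0.754). Ccnd3 was at 27.0 and 20.3 CPM in wild type and at 21.9, 28.5, 26.6 and 24.0 CPM in knockout (0.09, 95% interval -0.29 to 0.48, adjusted p = 0.959). The wild-type and knockout ranges overlapped for all 3, and Ccnd3 had its highest level in knockout 2, the library where Ccnd1 and Ccnd2 were lowest. Ccnd1 made up most of the summed level of the list, which was 422 and 523 CPM in wild type and 572, 364, 425 and 395 CPM in knockout.

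The inhibitors fall in the CIP/KIP family, which binds several cyclin and CDK pairs, and the INK4 family, which binds Cdk4 and Cdk6. Cdkn1a, p21, was at 172 and 233 CPM in wild type and at 167, 189, 239 and 189 CPM in knockout (-0.04, 95% interval -0.44 to 0.36, adjusted p = 0.986). Cdkn1b, p27, was at 22.4 and 20.6 CPM in wild type and at 21.5, 26.8, 27.5 and 24.8 CPM in knockout (0.23, 95% interval -0.10 to 0.56, adjusted p = 0.773). Neither was highest in knockout 1, where the mitosis genes peaked, and Cdkn1a was lowest there. Cdkn1c, p57, was at 2.28 and 4.20 CPM in wild type and at 4.18, 4.58, 7.39 and 5.59 CPM in knockout. Both knockout libraries exceeded the wild type of their own experiment, but knockout 1 stood just below wild type 2. Its log2 fold change of 0.75 (SE 0.34, 95% interval -0.02 to 1.53) had the smallest p of the 38 genes, with an adjusted p of 0.594, and of 0.13 with the replicate block. Cdkn1c was the 1 gene of the 38 at an unadjusted p under 0.05 in both alternative fits. With the replicate block its log2 fold change was 0.78 (edgeR, SE 0.23, unadjusted p = 0.0062), and DESeq2 gave an unadjusted p of 0.032. Under 0.05 were 13.6% of tested genes with the replicate block and 1240 of 13925 with DESeq2. The Cdkn1c value rests in part on wild type 1, without which the log2 fold change was 0.39.

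The INK4 genes were near the lower limit of these libraries. Cdkn2a was at 0.517 and 0.847 CPM in wild type and at 2.07, 0.632, 0.571 and 0.708 CPM in knockout. Cdkn2b, p15, was at 1.13 and 0.924 CPM in wild type and at 2.39, 0.830, 1.55 and 0.630 CPM in knockout. Both were highest in knockout 1, as the mitosis genes were. Counts of Cdkn2a do not separate its products p16 and p19Arf, which are read in different frames. The list sum, made up mostly of Cdkn1a, was 198 and 259 CPM in wild type and 197, 222, 276 and 221 CPM in knockout.

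Set against the wild-type library of their own experiment, the knockout libraries gave different pictures in the 2 experiments. In experiment 1 the knockout libraries lay on either side of wild type 1 for 31 of the 38 genes (35.4% of tested genes). Both were above it for 3 genes, Pcna, Cdkn1c and Cdkn2a (31.0%), and both below for 4, Mcm2, Mcm3, Mcm6 and Ccne1 (33.7%). In experiment 2 both were above wild type 2 for 26 of 38 genes (37.4%), among them 11 of 17 mitosis genes, 6 of 7 replication genes and 7 of 9 cyclins with Cdk1. Both were below for 4, Plk1, Ccnd1, Ccnd2 and Cdkn2a (40.0%). The median log2 ratio of the knockout mean to wild type over the mitosis genes was 0.10 in experiment 1 and 0.84 in experiment 2, and over the replication genes -0.32 and 0.30, where all tested genes had medians of -0.00 and -0.01. With 1 wild-type library in each experiment, these ratios have no error of their own.

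**Figure D5:**
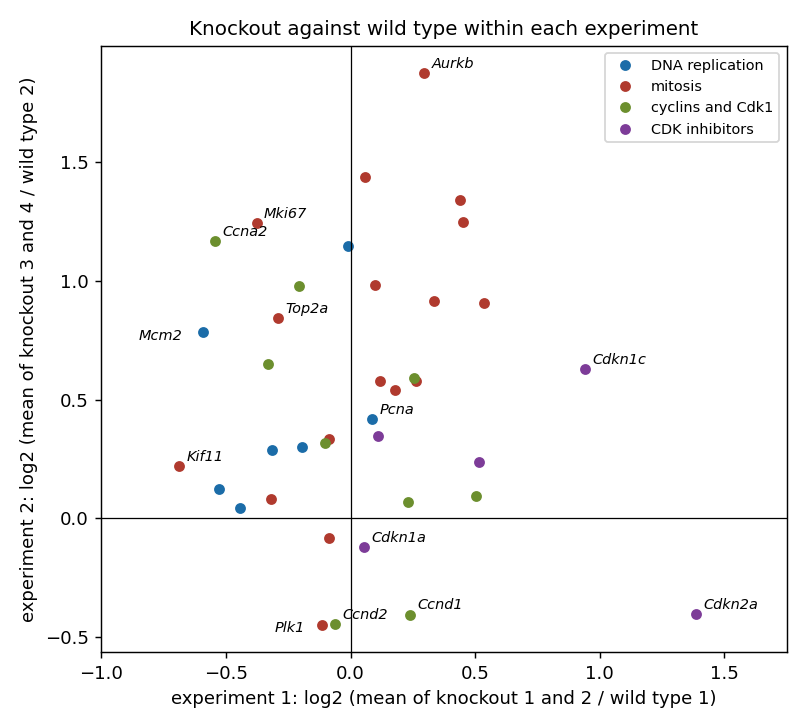
Log2 ratio of the mean CPM of the knockout libraries to the wild-type library, experiment 1 on the horizontal and experiment 2 on the vertical axis, 1 point per gene, coloured by role list. Mitosis points lie mostly above 0 on the vertical axis (median 0.84) and about 0 on the horizontal one (median 0.10).

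Mki67 had log2 ratios of -0.38 in experiment 1 and 1.24 in experiment 2, and Ccna2 of -0.55 and 1.17. Aurkb had 0.30 and 1.87, and Mcm2 -0.59 and 0.78. The difference between the experiments was tested as an interaction of genotype and experiment, with 2 residual degrees of freedom. No gene of the 13925 was called (0%; edgeR). Of the 38 genes, 2 passed an unadjusted threshold of 0.05, against 4.21% of tested genes: Mcm2 (1.37, SE 0.37) and Aurka (1.37, SE 0.58), both with an edgeR adjusted p of 0.998. Without knockout 1, the interaction called 7 of the 38 higher in experiment 2, Ccna2, Cdk1, Kif11, Mcm5, Mki67, Rrm2 and Top2a, with 1.48% of tested genes called; experiment 1 then had 1 library of each genotype and the fit assumed that they vary like the others. Without knockout 2 it called Ccnd1 lower, with 2.67% of tested genes called.

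Compared between the experiments with genotype held in the model, the cell cycle genes were mostly lower in experiment 2. Of the 38, 33 had a log2 difference (experiment 2 minus experiment 1) below 0, all 17 mitosis genes among them, against 7326 of the 13925 tested genes. The median was -0.57 against -0.02 over all tested genes. The libraries of experiment 1 were not alike in this. The mitosis sum was 85.7 CPM in wild type 1 and 121 CPM in knockout 1, but 34.7 CPM in knockout 2. The last lay below knockout 3 and 4 of experiment 2 (64.4 and 52.8 CPM). Markers of some other cell types moved the same way. The median difference was -0.52 for the luminal markers (13 of 15 below 0, 3 called lower) and -0.52 for the endothelial markers (14 of 15 below 0, none called). It was -0.44 for the pericyte markers (5 of 8 below 0, none called). Other marker lists moved less. Their medians were -0.09 for basal markers (9 of 12 below 0, 1 called lower) and -0.06 for fibroblast markers (5 of 9 below 0, none called). The leukocyte markers had -0.24 (2 of 4 tested genes below 0, none called). The part of these cell types in the difference was not tested. Mcm2 alone was called and fell by 1.16 in log2 units (edgeR, SE 0.28, adjusted p = 0.0454), where 6.43% of tested genes were called, 3.04% lower and 3.39% higher. It was lower in wild type 2 than in wild type 1, and lower in knockout 3 and 4 than in knockout 1 and 2. Mcm3 had a difference of -0.68 (adjusted p = 0.0587), and 6 genes were lower at an unadjusted p under 0.05, against 12.0% of tested genes. At that threshold 2 genes were higher, the inhibitors Cdkn1a (0.32, adjusted p = 0.122) and Cdkn1c (0.67, adjusted p = 0.0853), against 11.5% of tested genes. The count of genes called lower rested on single libraries: it was 13 without knockout 2, with Mki67, Top2a and Cdk1 among them, against 6.58% of tested genes called in either direction, and 0 without knockout 1, wild type 1, wild type 2 or knockout 4. Without knockout 1, Ccnd2 was called higher in experiment 2 (13.4% of tested genes called).

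The other genes of the pathway were taken from 4 further lists. Of 32 genes of replication licensing and DNA synthesis, 51 tested genes of the spindle, kinetochore and cytokinesis, 36 tested CDKs, phosphatases and genes of the RB, E2F and DREAM group, and 25 targets of p53, none was called between genotypes, with or without the replicate block. Of all tested genes only 0.0790% were called without the block and 1.56% with it, so few calls could fall in these lists. The median log2 fold changes of the 4 lists were 0.04, 0.11, 0.03 and 0.02. In the spindle and kinetochore list, 40 of 51 genes were highest in knockout 1, as most mitosis genes were (13.2% of tested genes). In experiment 1 the knockout libraries lay on either side of wild type 1 for 42 of 51 (35.4%), with either one above. The lowest library was knockout 2 for 25 genes (20.1%) and wild type 2 for 20 (19.8%). The sum of the list was 361 and 216 CPM in wild type 1 and 2 and 408, 234, 286 and 246 CPM in knockout 1 to 4.

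Rb1, the gene of the RB protein itself, was at 26.8 and 34.0 CPM in wild type and at 38.8, 41.0, 45.4 and 43.7 CPM in knockout, with no overlap between the groups. Its log2 fold change of 0.48 (SE 0.14) had an adjusted p of 0.343, and of 0.0596 with the replicate block. Lin54, the DREAM subunit that contacts the CHR element, was at 20.0 and 21.5 CPM in wild type and at 24.4, 27.3, 32.6 and 29.4 CPM in knockout (0.45, SE 0.15, adjusted p = 0.406). These groups did not overlap either. All knockout libraries were above both wild types in 3 of the 36 genes of that list and below in 2 (Ccnh and Wee1, named after their values were seen), against 7.60% and 8.57% of all tested genes, and Rb1 and Lin54 were named for their small p. Chaf1b, a subunit of the chromatin assembly factor that follows the replication fork, was at 14.1 and 13.9 CPM in wild type and at 14.4, 21.9, 21.5 and 19.4 CPM in knockout (0.47, SE 0.19, adjusted p = 0.551). Cdt1, which loads the MCM helicase, was at 25.1 and 20.9 CPM in wild type and at 27.6, 35.2, 33.4 and 25.0 CPM in knockout (0.39, adjusted p = 0.587). For Chaf1b and Cdt1, knockout 2 was the highest library and not knockout 1.

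In the spindle and kinetochore list, Cenpp, a centromere protein, was at 0.487 and 0.423 CPM in wild type and at 1.10, 0.672, 0.840 and 0.551 CPM in knockout (0.80, adjusted p = 0.738). Ckap2, a microtubule-associated protein, was at 6.14 and 3.31 CPM in wild type and at 7.70, 5.33, 6.65 and 5.94 CPM in knockout (0.43, adjusted p = 0.793). Knockout 1 was the highest library for both. Among the p53 targets, Trp53inp1 was at 60.9 and 50.6 CPM in wild type and at 72.5, 75.2, 81.7 and 112 CPM in knockout (0.61, SE 0.19, adjusted p = 0.382). Plk2 was at 698 and 830 CPM in wild type and at 680, 436, 450 and 491 CPM in knockout (-0.57, SE 0.19, adjusted p = 0.432). Their groups did not overlap, in opposite directions. Of the 25 genes of the list, 3 had every knockout library above and 3 below both wild types, against 7.60% and 8.57% of all tested genes, and the genes named were those of smallest p. Between the experiments, 3 of the 144 tested genes of these 4 lists were called (2.08%), below the 6.43% of all tested genes; they were picked out after their values were seen. Cdc25b, a phosphatase that activates Cdk1, fell by 1.11 in log2 units in experiment 2 (adjusted p = 0.0429), Rbl2, an RB relative in the DREAM complex, fell by 0.66 (adjusted p = 0.0333), and Sesn2, a p53 target of the stress response, rose by 0.75 (adjusted p = 0.00461).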

How the data were processed

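The authors deposited raw read counts per gene for 6 libraries, made with featureCounts 1.5.1 over exons of mm10 genes in the reverse-stranded setting (option 2), per the file headers, with reads of several matches or several genes left out. Base calling and alignment used bcl2fastq 2.17 and STAR 2.5.2b, per the submitters' processing notes. The mRNA kit kept the strand, per the labels' protocols.

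Here, genes were kept with edgeR's filterByExpr (13925 kept, 9412 set aside) and scaled by TMM. Genotype alone was fitted over all kept genes with edgeR 4.0.16 in R 4.3.3 (glmQLFit, robust; glmQLFTest, 2-sided). A gene was called at an adjusted p (Benjamini-Hochberg, over all kept genes) under 0.05. CPM and TPM were computed from the counts, without a prior count. Experiment was read from the day code in the file names, used as a technical batch. It was taken to pair the libraries as the labels state 2 experiments and deviations from group means correlated within them (r = 0.32, 0.29, 0.25 and 0.41 across genes), though with 2 wild types these values mirror each other. The deviations of the knockout libraries also cancel out within each gene, so the r values are not separate checks. The alternatives were this replicate block, DESeq2 1.42.0, other size factors, no low-count filter, and leaving out each library. All 38 genes were accounted for, with values per library for each, and of each further list the 2 genes of smallest p were named beside Vim and the cell markers. The members, lists and tests were chosen with earlier results of these data known, and the rule for the members uses symbols only. The fits were tested on simulated data in which no single library shifted many genes together. That test therefore does not cover the differences between single libraries described above. Promoters and motifs came from RefSeq (GRCm38.p6, the build family of mm10).

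Total counts of 25347967 to 31200622 leave counting error small except for the lowest genes, and intervals for counting cover that error only, since reads carry no molecular identifiers.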

Additional observations from a re-analysis of the deposited data

Results flagged for a closer look

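For 5 of the 38 genes, 1 of the 4 knockout libraries lay apart from the other 3 by more than Dixon's 95% limit, which chance passes in about 1 of 20 groups. Knockout 1 was the high library for Cenpf (4.90 CPM against 1.41 to 2.01 CPM), Ccnb1 (1.67 CPM against 0.474 to 0.537 CPM), Ccnb2 (4.50 CPM against 1.62 to 1.88 CPM) and Cdkn2a (2.07 CPM against 0.571 to 0.708 CPM). Knockout 2 was the low library for Aurka (1.86 CPM against 2.16 to 2.22 CPM), a gap of a few counts. Cenpf, Ccnb1 and Ccnb2 act in mitosis and share this library at the top with most other mitosis genes.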

How the results depend on the processing

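The count of 0 of 38 genes called between genotypes was the same with the replicate block by experiment, the replicate block by title number, other size factors, no low-count filter, DESeq2 and with each library left out. The block by title number used only 4 libraries, wild type 1 and 2 and knockout 1 and 2, and so had less power than the other fits. Counting genes by library order (knockout 1 highest, both knockouts above wild type 2, all knockouts above wild type) gave 16 or 17, 26 or 27 and 1 under other scalings added after seeing the data. The direction of single genes was not stable. Leaving out each library in turn, the median log2 fold change ranged from -0.53 to 0.47 for DNA replication, from -0.13 to 1.02 for mitosis, from -0.26 to 0.70 for cyclins with Cdk1 and from 0.042 to 0.63 for the inhibitors, the lowest value for cyclins and for the inhibitors coming without knockout 1. Log2 fold changes that turned sign ranged over these fits from -0.90 to 1.20 for Mcm2, -0.53 to 0.57 for Mcm3, -0.61 to 0.25 for Mcm5, -0.66 to 0.29 for Mcm6, -0.049 to 1.22 for Rrm2, -0.32 to 0.47 for Tyms, -0.53 to 1.45 for Mki67, -0.41 to 1.01 for Top2a, -0.58 to 0.45 for Birc5, -0.13 to 0.97 for Cdc20, -0.086 to 0.91 for Cenpa, -0.46 to 0.77 for Cenpe, -0.62 to 0.50 for Cenpf, -0.80 to 0.37 for Kif11, -0.22 to 1.02 for Kif20a, -0.084 to 1.22 for Tpx2, -0.62 to 1.28 for Ccna2, -0.47 to 0.70 for Ccnb1, -0.13 to 0.55 for Ccnb2, -0.46 to 0.83 for Cdk1, -0.30 to 1.10 for Ccne1, -0.26 to 0.12 for Ccnd1, -0.098 to 0.33 for Ccnd3, -0.23 to 0.19 for Cdkn1a, -0.072 to 0.96 for Cdkn2a and -0.0098 to 0.63 for Cdkn2b. With the replicate block by title number, where the numbers do not pair the libraries, the values that turned sign were 0.42 for Mcm2, 0.19 for Mcm3, 0.096 for Birc5, 0.23 for Cenpf and -0.040 for Cdk1. Between experiments, 2 genes were called lower with no low-count filter and with DESeq2, and from 0 to 13 lower and 0 to 1 higher with a library left out. The interaction called from 0 to 7 higher and from 0 to 1 lower, wild-type libraries not being removable there, and DESeq2 was not run for it. Within 100 bases before the start, a CHR element was in 1 of 7 replication genes and 1 of 4 inhibitors, against 11.3% of all genes. It was in 7 of 14 mitosis genes and 3 of 5 cyclins with Cdk1. An E2F site was then in 1 of 7 replication genes and 0 of 5 cyclins with Cdk1, against 1.34% of all genes. Vim without wild type 1 or 2 or knockout 2, 3 or 4 had an adjusted p above 0.05 with its log2 fold change between -1.18 and -1.03. The causes were not tested.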
